A study of Mus musculus with 5 samples.

Results

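Havcr1, Lcn2, Clu, Gdf15 and Sprr2f are 5 genes used as markers of kidney tubule injury, chosen by name and matched by their symbols to 5 of the 32285 genes in the deposited matrices. They were followed through the cell types of injured mouse kidneys. Kidneys of 5 mice were profiled by droplet single-cell RNA sequencing after ischemia-reperfusion injury (IRI), in which blood flow to the kidney is stopped and then restored. Mice 3, 4 and 5 were taken at day 10 and mice 1 and 2 at 48 h. Each mouse gave 1 library, all 5 mice had been injured, and no uninjured kidney was analysed here, so every level is a level after injury and every change is day 10 over 48 h. The labels used here give no strain, sex, age, ischemia time or batch.

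The 5 genes mark injury in different ways. Havcr1 encodes KIM-1, a membrane protein of proximal tubule cells that binds phosphatidylserine on dying cells and lets the epithelium take them up. Lcn2 encodes NGAL, a small secreted protein that binds iron-carrying siderophores, first purified from neutrophil granules and measured in urine as a marker of tubule damage. Clu encodes clusterin, a secreted chaperone of misfolded proteins. Gdf15 encodes a stress-induced cytokine of the TGF-beta family whose known receptor, GFRAL, lies in the brainstem. Sprr2f belongs to the small proline-rich proteins, which are best known as parts of the cornified envelope of skin. In textbook accounts KIM-1 belongs to the proximal tubule and NGAL to the thick ascending limb and collecting duct.

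In GENCODE M21 on mm10, Havcr1 (ENSMUSG00000040405) spans chr11:46735080-46779578 on the plus strand and Lcn2 (ENSMUSG00000026822) spans chr2:32384633-32388252 on the minus strand. Clu (ENSMUSG00000022037) spans chr14:65968483-65981547 on the plus strand, Gdf15 (ENSMUSG00000038508) chr8:70629393-70632456 on the minus strand and Sprr2f (ENSMUSG00000050635) chr3:92365187-92366442 on the plus strand. All 5 are protein-coding. The promoters of Havcr1, Lcn2 and Sprr2f are shown because Havcr1 was highest in proximal tubule and Lcn2 and Sprr2f in distal and principal cells. They run from 250 bases before to 50 bases after the start in RefSeq (GRCm38.p6), on the strand of the gene, at chr11:46739973-46740272 for Havcr1 (1 of 3 RefSeq entries), chr2:32387690-32387989 for Lcn2 and chr3:92364937-92365236 for Sprr2f. Capitals mark a match to the TATA box TATAAA or to the AP-1 motif TGANTCA, searched on both strands together with the STAT motif TTCNNNGAA.
Havcr1 promoter: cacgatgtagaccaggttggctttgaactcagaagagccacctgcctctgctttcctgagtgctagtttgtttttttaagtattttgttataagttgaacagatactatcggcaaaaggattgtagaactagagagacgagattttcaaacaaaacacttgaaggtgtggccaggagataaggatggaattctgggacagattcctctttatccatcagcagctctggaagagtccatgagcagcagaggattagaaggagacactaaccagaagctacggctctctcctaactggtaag
Lcn2 promoter: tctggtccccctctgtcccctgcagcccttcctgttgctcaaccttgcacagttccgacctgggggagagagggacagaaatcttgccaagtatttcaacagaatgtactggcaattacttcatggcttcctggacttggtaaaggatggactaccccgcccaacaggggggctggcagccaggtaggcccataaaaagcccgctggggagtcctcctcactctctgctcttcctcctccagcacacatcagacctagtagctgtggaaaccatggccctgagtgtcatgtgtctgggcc
Sprr2f promoter: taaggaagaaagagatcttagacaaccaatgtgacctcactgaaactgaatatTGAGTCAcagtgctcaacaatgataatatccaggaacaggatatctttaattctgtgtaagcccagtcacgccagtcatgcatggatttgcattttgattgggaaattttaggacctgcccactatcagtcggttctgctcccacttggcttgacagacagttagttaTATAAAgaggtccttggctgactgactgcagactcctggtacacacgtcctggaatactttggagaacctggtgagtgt
Among these 3 windows Sprr2f alone held a match, TATAAA at position -29 and TGANTCA at position -197 from the start. TATAAA was present in 13.6%, TGANTCA in 7.81% and TTCNNNGAA in 8.30% of 32851 RefSeq promoter windows of this length, and none of the 3 motifs was found in the Gdf15 window.

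Levels are UMIs (counted RNA molecules) of a gene summed over the cells of one type in one mouse, scaled to 1e+06 UMIs of that sum (CPM). The deposited cell table kept 5912, 3909 and 5361 cells of day 10 mice 3, 4 and 5 and 4895 and 3720 cells of 48 h mice 1 and 2. These cells held 57375234 to 78351722 UMIs per library at day 10 and 45887945 to 60583527 at 48 h, and the median cell held 10328.5 to 11750 UMIs at day 10 against 5823 and 6260 at 48 h. Libraries shared 3 to 10 cell barcodes per pair. The 18 authors' labels were merged into parent types (proximal tubule; thick ascending limb; distal convoluted, connecting and principal cells, called distal and principal; and so on). Marker genes fitted most labels: all 4 thick ascending limb markers, all 5 descending thin limb markers and 8 or 9 of 9 proximal tubule markers in the S1, S2/3 and injured proximal labels were highest under those names. The label for cycling proximal cells went against its name at day 10, where the summed proximal markers were 190, 120 and 144 CPM and the thick ascending limb markers 884, 539 and 1747 CPM, against 1956 and 4617 CPM of proximal and 412 and 304 CPM of thick ascending limb markers at 48 h. The label TEC is named here as the authors wrote it, and its cells were shallow, with a median of 1627 UMIs.

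**Figure D1:**
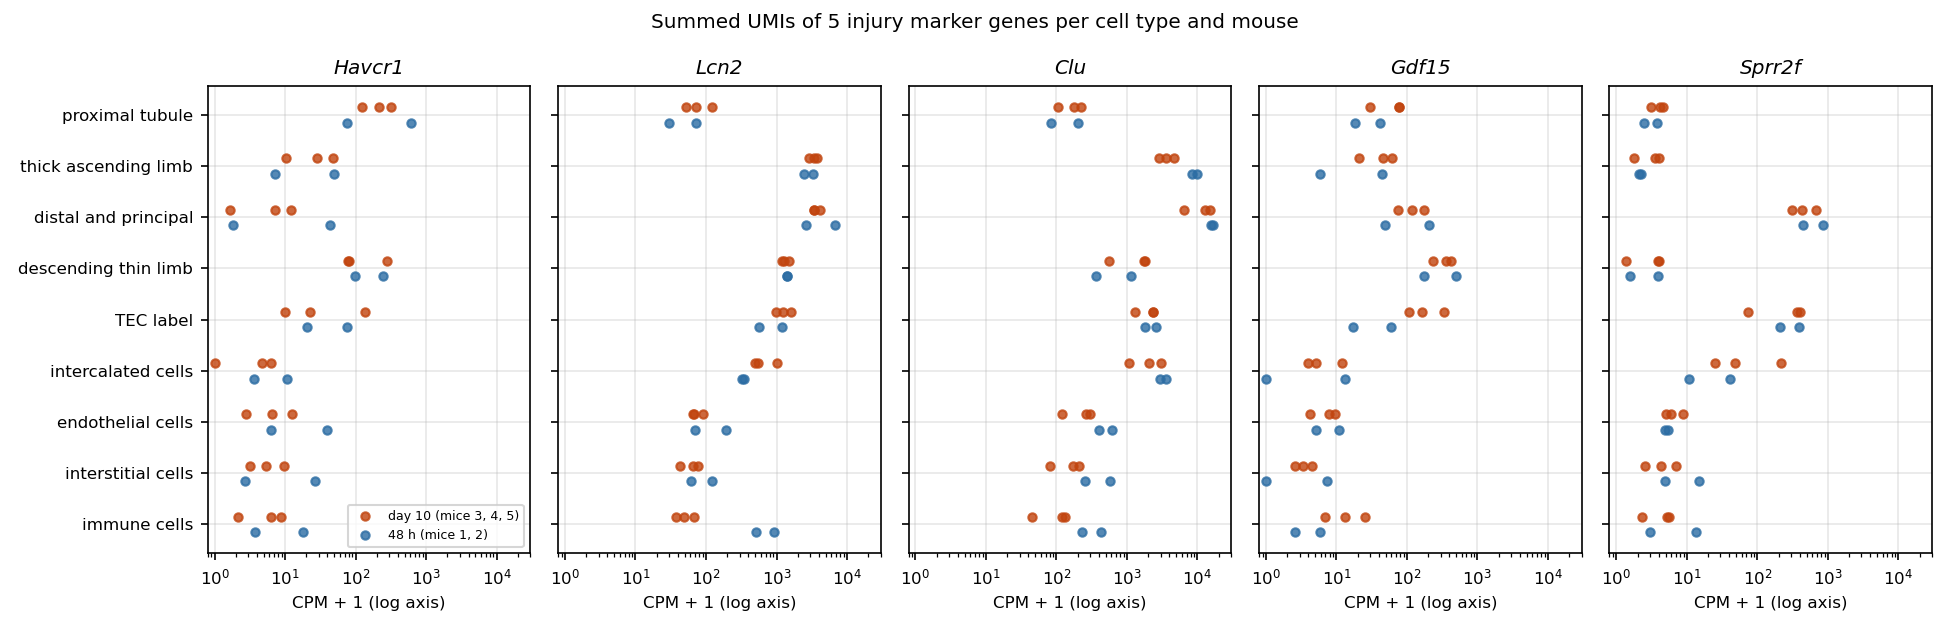
CPM of the 5 genes (log axis, CPM + 1) in 9 cell types, with each point 1 mouse, day 10 mice above 48 h mice. Havcr1 was highest in proximal tubule and descending thin limb, Lcn2 and Clu in thick ascending limb and distal and principal cells, Gdf15 in descending thin limb, and Sprr2f in distal and principal cells and the TEC label.

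Havcr1, the KIM-1 gene, was mainly a proximal tubule transcript at both times. Proximal tubule cells held 320.7, 123 and 213.6 CPM in day 10 mice 3, 4 and 5, against 610 and 75.3 CPM in 48 h mice 1 and 2, and the 2 times overlapped because the highest and the lowest mouse were both taken at 48 h. They held 78.6, 73.1 and 87.4% of all Havcr1 UMIs of a library at day 10 and 86.6 and 76.9% at 48 h. The descending thin limb, a medullary segment without reabsorptive brush border, came next with 276.9, 81.0 and 77.4 CPM at day 10 against 245.4 and 98.6 CPM at 48 h. Its range overlapped that of the proximal tubule, which was higher in 4 of 5 mice, and it did not overlap that of the thick ascending limb, which ran from 9.30 to 46.8 CPM at day 10 and from 6.24 to 48.3 CPM at 48 h. Summed proximal tubule markers in the descending thin limb were 87.3, 35.6 and 82.9 CPM at day 10 against 54.7 and 101 CPM at 48 h. S1 cells carried 5018 to 8002 CPM of them. The injured proximal label, which held 66.3 to 83.8% of a library's Havcr1 UMIs, carried 1610 to 7068 CPM.

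Free RNA in droplets gives some UMIs to cells that do not make a transcript, so endothelial cells, the vessel lining, served as the background for Havcr1. They held 11.5, 1.77 and 5.52 CPM at day 10 against 38.7 and 5.39 CPM at 48 h. Proximal tubule cells stood 14.0 to 69.5 times above this level within the same mouse and the descending thin limb 6.35 to 45.8 times. The thick ascending limb stood 1.16 to 5.26 times above it, whereas distal and principal cells as a whole ran from 0.157 to 1.11 times it, which is at background. Within them the injured distal label ran from 0 to 2.34 times it and was above it in 3 of 5 mice. With every cell thinned to 1000 UMIs, 14.5, 7.49 and 11.8% of proximal cells had a Havcr1 UMI at day 10 and 27.5 and 5.33% at 48 h, against 1.55, 0.808 and 0% of endothelial cells at day 10 and 3.39 and 0.776% at 48 h. Unthinned, the shares were 37.3, 20.7 and 36.1% of proximal cells at day 10 and 61.2 and 25.6% at 48 h, against 1.13 to 5.92% of endothelial cells at day 10 and 2.64 and 13.2% at 48 h, with a median of 9938 UMIs in a proximal and 4377 in an endothelial cell.

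**Figure D2:**
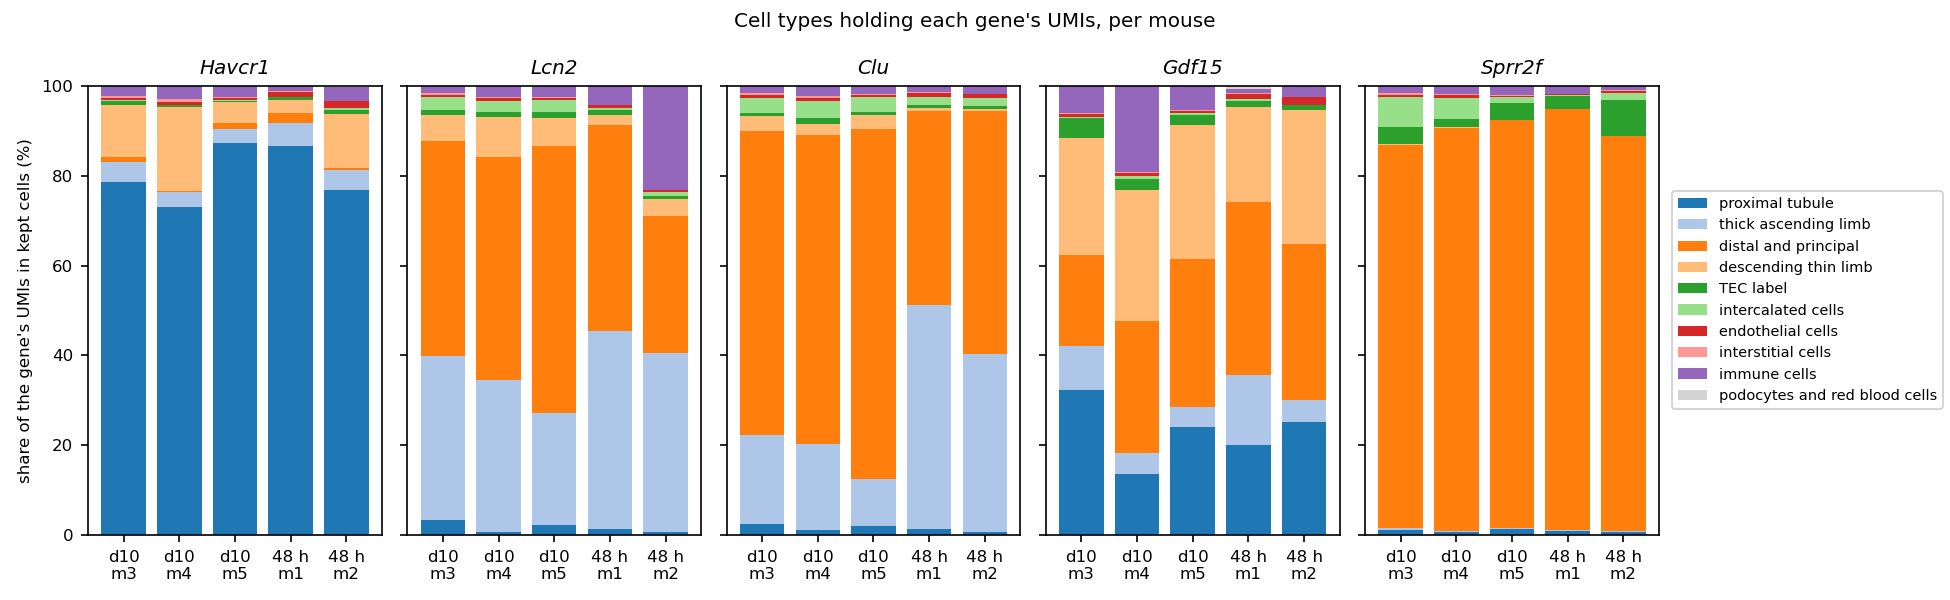
Share of each gene's UMIs in kept cells (%, vertical axis) by cell type, 1 bar per mouse, day 10 (d10) left of 48 h. Proximal tubule held 73.1 to 87.4% of Havcr1, distal and principal cells held most Sprr2f, and in 48 h mouse 2 immune cells held 23.2% of Lcn2.

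The authors' injured proximal label was in effect a Havcr1 count. All 1293 cells of the label Injured PTECs had at least 2 Havcr1 UMIs, with a median of 8 and a highest count of 177, and 235 of them had exactly 2. No cell of the S1 label (1292 cells), the Lrp2-positive S2/3 label (988 cells) or the Lrp2-negative S2/3 label (817 cells) had more than 1, and 212, 205 and 129 cells of these labels had exactly 1. The label for cycling proximal cells was not divided this way, with 41 of 290 cells at 2 or more. The Havcr1 level of the injured label, 788.6, 607.2 and 593.3 CPM at day 10 against 798.3 and 232.6 CPM at 48 h, is therefore set by its definition. It is given as a description with no test.

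A fixed count of 2 UMIs is passed more easily by a deep cell. Of proximal cells with 1000 to fewer than 2000 UMIs in all, 3.89% passed it, and of those with 20000 or more, 47.0% did. The injured label had a median of 24382 UMIs per cell, S1 cells 9602 and Lrp2-negative S2/3 cells 1990. The share of proximal cells at 2 or more Havcr1 UMIs was 26.3, 14.97 and 24.8% at day 10 and 45.2 and 13.4% at 48 h. After thinning to 1000 UMIs it was 5.61, 2.40 and 3.84% at day 10 and 10.7 and 0.780% at 48 h, and mouse 1 was the highest and mouse 2 the lowest both before and after thinning. The tenth of proximal cells with the most Havcr1 held 81.6, 92.1 and 80.5% of the proximal Havcr1 UMIs at day 10 and 65.9 and 83.4% at 48 h.

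**Figure D3:**
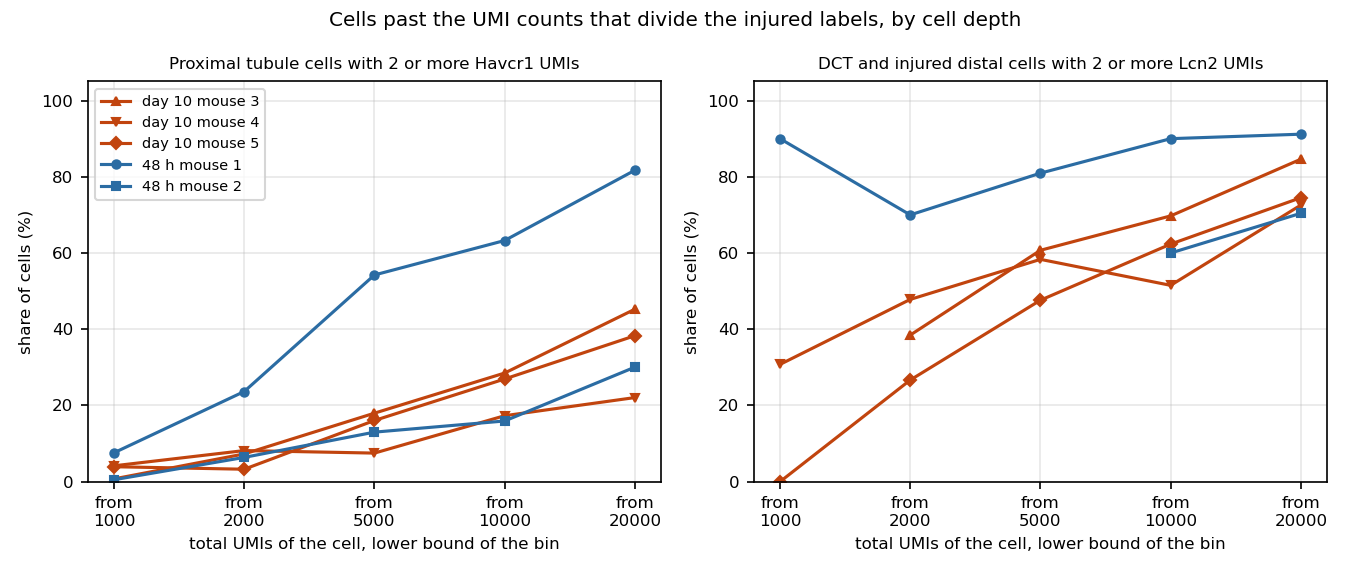
Share of cells (%, vertical axis) with 2 or more UMIs of Havcr1 in proximal tubule cells (left) and of Lcn2 in the distal convoluted and injured distal labels (right), by total UMIs of the cell, 1 line per mouse, day 10 in orange and 48 h in blue, with points drawn for 10 or more cells. The share of proximal cells past 2 Havcr1 UMIs was highest in the deepest cells of every mouse, and 48 h mouse 1 lay above the other 4 at each depth.

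The same division held in the distal nephron for Lcn2. All 633 cells labelled Injured DTECs had at least 2 Lcn2 UMIs, 44 of them exactly 2, and none of the 273 cells labelled DCT (distal convoluted tubule) had more than 1, with 93 at exactly 1. In the 2 labels together the share at 2 or more was 72.4, 58.7 and 61.1% at day 10 and 87.7 and 64.2% at 48 h. Thinned to 1000 UMIs it was 40.9, 20.3 and 30.5% at day 10 and 65.0 and 25.7% at 48 h. Connecting tubule and principal cells were not divided by this count, as 274 of 362 connecting and 727 of 741 principal cells had 2 or more.

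No member passed the test in proximal tubule between the times. Summed UMIs per mouse were tested with edgeR's quasi-likelihood test over all genes of a type, with Benjamini-Hochberg adjusted p under 0.05 as the threshold. Its p-values measure the spread between these 5 mice. In proximal tubule 0 of the 5 members were called, 0 had an unadjusted p under 0.05 and DESeq2 called 0, where 3.22% of all 13899 genes tested were called, 1.28% higher and 1.94% lower at day 10. Havcr1 gave a log2 fold change of -0.91 (SE 0.77, 95% interval -2.73 to 0.91, edgeR adjusted p = 0.515). Without 48 h mouse 1 it was 1.31 with an edgeR adjusted p of 0.202, so the sign rested on that mouse. The other members in proximal tubule had log2 fold changes of 0.41 for Lcn2, -0.01 for Clu, 0.76 for Gdf15 and 0.24 for Sprr2f, with edgeR adjusted p of 0.640, 0.992, 0.407 and 0.748. These sums include the cycling label, whose part was not separated here. The S1 and S2/3 labels hold no cell with more than 1 Havcr1 UMI, so their low levels follow from the same division and are given as a description. S1 cells held 9.58, 2.89 and 7.68 CPM at day 10 against 31.4 and 6.47 CPM at 48 h, which was 0.814 to 1.64 times the endothelial level. Lrp2-negative S2/3 cells held 40.4, 40.0 and 40.3 CPM at day 10 against 93.2 and 26.7 CPM at 48 h, which was 2.41 to 22.6 times it. These day 10 levels rested on 23, 5 and 13 UMIs, and in mouse 4 the endothelial level rested on 7. With at most 1 Havcr1 UMI per cell, the CPM of these labels depends on depth. The median cell held 1990 UMIs in the Lrp2-negative label and 9602 in S1, so their levels are not comparable.

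Havcr1 did not pass the test in the other tubule types either. Its log2 fold change was -0.31 in the descending thin limb (SE 0.55, edgeR adjusted p = 0.814), -0.33 in the thick ascending limb (SE 0.77, edgeR adjusted p = 0.814) and -2.02 in distal and principal cells (SE 1.20, edgeR adjusted p = 0.759). In distal and principal cells as a whole the level itself was at background. Summed over all kept cells of a library, Havcr1 was 110.6, 19.3 and 69.8 CPM at day 10 against 230.8 and 24.9 CPM at 48 h, and these groups overlapped.

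Lcn2, the NGAL gene, came mainly from the later segments of the nephron. Distal and principal cells held 4124, 3401 and 3450 CPM in day 10 mice against 6752 and 2607 CPM in 48 h mice. Within them, principal cells of the collecting duct held 7274, 6648 and 6069 CPM at day 10 against 11398 and 4968 CPM at 48 h. In both sums the 2 mice at 48 h lay on either side of all 3 mice at day 10. The thick ascending limb, which makes the medullary salt gradient, held 3349, 3754 and 2931 CPM at day 10 against 3325 and 2480 CPM at 48 h, and its range overlapped that of distal and principal cells. Both lay above the descending thin limb, with 1214, 1481 and 1285 CPM at day 10 against 1423 and 1405 CPM at 48 h, and no range overlapped there. Intercalated cells, the acid-base cells of the collecting duct, held 1016, 488 and 549 CPM at day 10 against 319 and 347 CPM at 48 h.

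Nearly every thick ascending limb cell had an Lcn2 UMI. The share was 99.0, 97.9 and 96.6% at day 10 and 99.1 and 98.3% at 48 h, and with 1000 UMIs per cell it was 80.7, 76.4 and 75.4% at day 10 and 81.0 and 80.0% at 48 h. In endothelial cells it was 24.3, 28.4 and 24.5% at day 10 and 38.1 and 20.7% at 48 h, and thinned 6.35, 7.27 and 8.33% at day 10 and 13.3 and 6.37% at 48 h. The median cell held 19473 UMIs in the thick ascending limb and 4377 in endothelium. Proximal tubule Lcn2 was 119, 50.4 and 70.6 CPM at day 10 against 71.4 and 29.0 CPM at 48 h, with endothelial cells at 65.5, 67.0 and 89.5 CPM at day 10 and 194 and 68.2 CPM at 48 h. The proximal level was above the endothelial one in 1 of 5 mice, so proximal Lcn2 was not detectable above background.

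Tubule Lcn2 did not pass the test in any segment. In the thick ascending limb the log2 fold change was -0.16 (SE 0.19, 95% interval -0.59 to 0.28, edgeR adjusted p = 0.623), and in the descending thin limb it was -0.14 (SE 0.14, 95% interval -0.46 to 0.18, edgeR adjusted p = 0.654). These 2 intervals are narrow, and they do not show that the level was equal at both times. In distal and principal cells the interval was wider, -1.46 to 0.37 around -0.54 (SE 0.39, edgeR adjusted p = 0.809), and in principal cells alone, where 0.0628% of genes were called, the log2 fold change was -0.44 (SE 0.36, edgeR adjusted p = 0.706). Intercalated cells had groups that did not overlap, with a log2 fold change of 0.92 (SE 0.29, edgeR adjusted p = 0.314), in a type where 32.1% of genes did not overlap and 0.238% were called.

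Immune cells were where Lcn2 fell. They held 48.5, 36.4 and 67.4 CPM at day 10 against 506 and 912 CPM at 48 h, with no overlap, a log2 fold change of -3.76 (SE 0.34, edgeR adjusted p = 0.00369). Of the 5 members 2 were called in immune cells, Lcn2 and Clu, both lower at day 10, in a type where 19.2% of genes were called (9.23% lower at day 10) and 55% did not overlap. For Clu, immune cells also served as the background. Immune cells held 1.61, 2.39 and 2.40% of a library's Lcn2 at day 10 and 4.12 and 23.2% at 48 h. Of immune cells thinned to 1000 UMIs, 5.53, 3.90 and 6.58% had an Lcn2 UMI at day 10, below the endothelial share of the same mouse in all 3, and 30.5 and 39.7% did at 48 h.

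The make-up of the immune cells differed between the times. The deposited cluster 5 expressed all 4 neutrophil markers (S100a8, S100a9, Retnlg, Csf3r), and this neutrophil-like cluster made up 10.3, 5.24 and 10.2% of immune cells at day 10 and 35.5 and 43.6% at 48 h. Cluster 0, macrophage-like by Adgre1, C1qa, C1qb and Csf1r, made up 83.4, 92.2 and 84.8% at day 10 and 55.0 and 51.5% at 48 h. Lcn2 in cluster 5 was 462, 664 and 943 CPM at day 10 against 2598 and 3593 CPM at 48 h, with no overlap and a log2 fold change of -2.68 (SE 0.28, edgeR adjusted p = 0.000308), where 18.5% of genes were called and 60.5% did not overlap. In cluster 0 it was 37.5, 30.4 and 43.0 CPM at day 10 against 193 and 235 CPM at 48 h, a log2 fold change of -2.49 (SE 0.17, edgeR adjusted p = 0.00235), where 24.1% of genes were called and 57.9% did not overlap. Within the same mouse, cluster 5 Lcn2 was 7.06 to 52.7 times the endothelial level. Cluster 0 Lcn2 was 0.453 to 3.45 times it and above it in 1 of 5 mice, so it was mostly at background. Lcn2 was lower at day 10 in clusters 0 and 5, the immune clusters compared here. Summed neutrophil markers moved with it in both: they were 53600, 55511 and 61491 CPM at day 10 and 159672 and 213162 CPM at 48 h in cluster 5, and 49.5, 80.9 and 94.9 CPM at day 10 and 1398 and 3245 CPM at 48 h in cluster 0, and their part in the Lcn2 values was not tested.

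**Figure D4:**
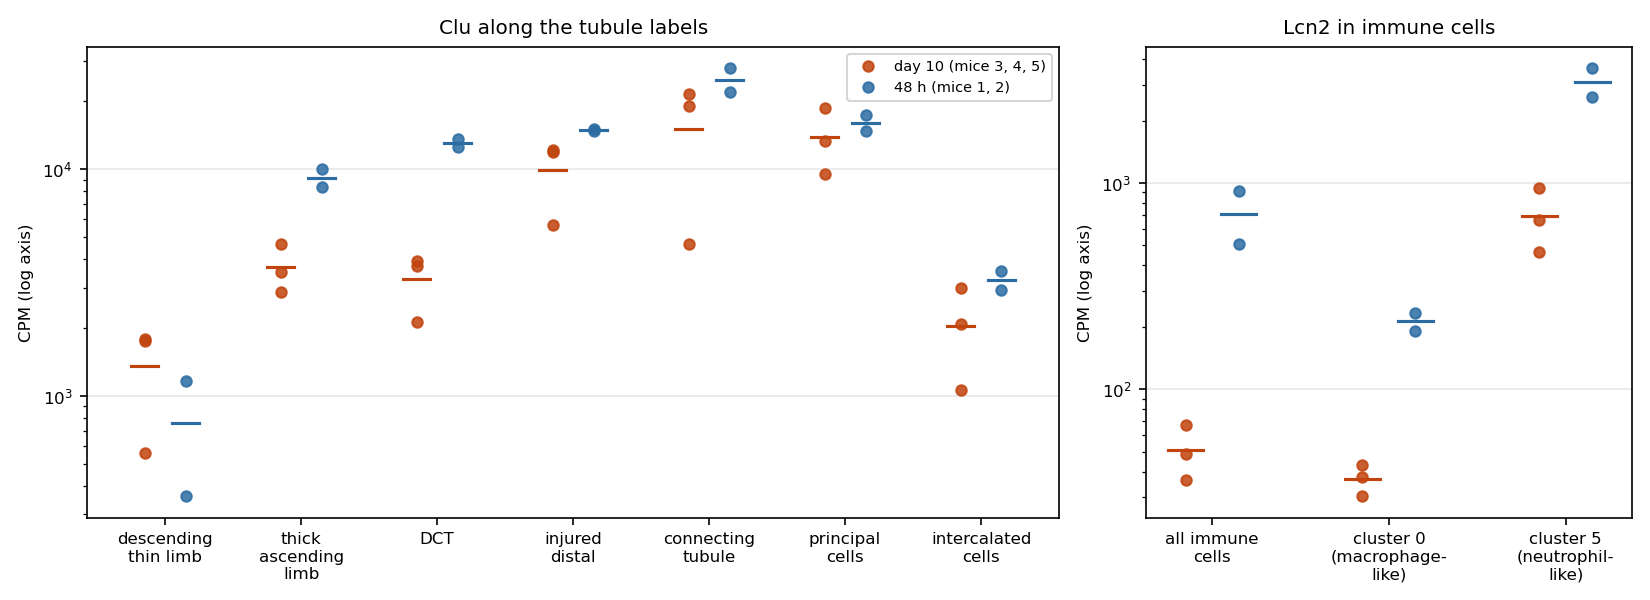
CPM (log axis) of Clu in 7 tubule labels or types (left) and of Lcn2 in all immune cells and the deposited clusters 0 and 5 (right), 1 point per mouse, bars at the group mean, day 10 left of 48 h. Clu groups did not overlap in thick ascending limb, DCT, connecting tubule and injured distal cells, as for 57.4, 32.8, 28.2 and 34.3% of all genes in them, with day 10 mice between 2126 and 4689 CPM and 48 h mice between 8303 and 13562 CPM in the first 2, and Lcn2 was lower at day 10 in both immune clusters.

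Clu, the clusterin gene, fell in the thick ascending limb. It held 4689, 2868 and 3528 CPM there in day 10 mice against 9964 and 8303 CPM in 48 h mice. The groups did not overlap, and the log2 fold change was -1.67 (SE 0.22, 95% interval -2.18 to -1.15, edgeR adjusted p = 0.00881). Clu was the one member called of 5 in this type, where 10.4% of genes were called (5.38% lower at day 10) and 57.4% did not overlap. Without day 10 mouse 5 the log2 fold change was -1.63 with an edgeR adjusted p of 0.0758. The median thick ascending limb cell had 7.20, 8.70 and 6.89% mitochondrial UMIs at day 10 against 23.0 and 21.8% at 48 h. In proximal tubule it was 19.4, 18.3 and 19.7% at day 10 against 18.4 and 17.5% at 48 h. Sums of cells under 20% mitochondrial UMIs alone were run as an alternative setting. Beyond that, the part of this difference in the thick ascending limb values was not tested. Neutrophil and macrophage markers in these cells also differed between the times: the 4 neutrophil markers summed to 6.97, 34.9 and 13.5 CPM at day 10 against 139.6 and 597 CPM at 48 h, and the 4 macrophage markers to 128, 126 and 149 CPM at day 10 against 6.39 and 8.20 CPM at 48 h. Clu in the neutrophil-like cluster was 306, 145 and 289 CPM at day 10 against 1128 and 235 CPM at 48 h, below the thick ascending limb of the same mouse in all 5. With every cell at 1000 UMIs, 80.0, 65.1 and 67.6% of thick ascending limb cells had a Clu UMI at day 10 and 92.7 and 88.4% at 48 h, against 13.1, 5.36 and 12.8% of immune cells at day 10 and 24.8 and 16.4% at 48 h.

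The highest Clu levels lay further along the nephron and did not pass the test. Distal and principal cells held 14986, 6407 and 12931 CPM at day 10 against 16867 and 15650 CPM at 48 h, a log2 fold change of -0.68 (SE 0.35, 95% interval -1.51 to 0.16, edgeR adjusted p = 0.720). These groups did not overlap, as for 31.4% of the genes of this type, and of the 5 members 0 were called by edgeR and 0 by DESeq2, 0 with an unadjusted p under 0.05 in edgeR and 1 in DESeq2, where 0.00774% of genes were called. Day 10 mouse 4 was the lowest in every distal label. Connecting tubule cells held 21480, 4696 and 18922 CPM at day 10 against 27817 and 21828 CPM at 48 h, and principal cells held 18673, 9552 and 13282 CPM at day 10 against 17312 and 14701 CPM at 48 h.

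Within the distal labels the DCT label stood out in its own test. It held 3946, 2126 and 3745 CPM of Clu at day 10 against 12514 and 13562 CPM at 48 h, with no overlap, a log2 fold change of -2.15 (SE 0.29, edgeR adjusted p = 0.0111), where 0.721% of genes were called and 32.8% did not overlap. Without day 10 mouse 3 the log2 fold change was -2.28 with an edgeR adjusted p of 0.0636. Since this label holds the cells with at most 1 Lcn2 UMI, it was also summed with the injured distal label that Lcn2 split from it. Together they gave -1.03 (SE 0.35, edgeR adjusted p = 0.354), which was not called, where 0.0174% of genes were. Injured distal cells alone held 12186, 5699 and 11871 CPM at day 10 against 15085 and 14749 CPM at 48 h, a log2 fold change of -0.79 (SE 0.33, edgeR adjusted p = 0.455), where 0.199% of genes were called.

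Other types carried less Clu. Intercalated cells held 2996, 1063 and 2069 CPM at day 10 against 3554 and 2944 CPM at 48 h, and the TEC label 2352, 1293 and 2377 CPM at day 10 against 2580 and 1823 CPM at 48 h. The descending thin limb ran the other way in its means, with 1738, 562 and 1784 CPM at day 10 against 1159 and 361 CPM at 48 h, a log2 fold change of 0.77 (SE 0.54, edgeR adjusted p = 0.485) that did not pass. Proximal tubule Clu was 224, 104 and 174 CPM at day 10 against 199 and 82.9 CPM at 48 h, which is 0.364 to 2.38 times the immune level and so not distinguishable from background. The time effect of Clu differed between proximal tubule and thick ascending limb, by 1.76 on the log2 scale (SE 0.30, 95% interval 1.07 to 2.46, edgeR interaction test with a term for each mouse, adjusted p = 0.0151). In that comparison 7.38% of genes were called, 1 of the 5 members, and the proximal side of the difference is a background level. Without day 10 mouse 3 the adjusted p was 0.0688, without day 10 mouse 5 it was 0.0920, and without the mouse terms it was 0.155. Between proximal tubule and distal and principal cells 0 of 5 members were called by edgeR, 4 with an unadjusted p under 0.05, where 0.304% of genes were called.

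Clu was lower at day 10 in immune cells too, at 119, 43.7 and 129 CPM against 433 and 228 CPM at 48 h, a log2 fold change of -1.71 (SE 0.46, edgeR adjusted p = 0.0490). This call was lost without TMM factors, without mouse 1, 2, 3 or 5 and with cells under 20% mitochondrial UMIs alone (adjusted p 0.0507 to 0.255). Clusterin RNA at these levels is a small part of what distal cells hold. Immune cells are also the type that served here as the background for Clu, so this change is in the background level itself. Clu groups did not overlap in the other non-epithelial types, as for 34.6% of genes in endothelium and 44.3% in interstitial cells: endothelial cells held 295, 117 and 263 CPM at day 10 against 607 and 396 CPM at 48 h, and interstitial cells 171, 79.8 and 206 CPM at day 10 against 578 and 250 CPM at 48 h. In neither was a member called: edgeR called 0 of 5 in endothelium (3 with an unadjusted p under 0.05, DESeq2 0), where 0.328% of genes were called, and 0 of 4 in interstitial cells (1 with an unadjusted p under 0.05, DESeq2 0), where 7.44% were called. Barcodes outside the deposited cell table held 2456, 1719 and 2764 CPM of Clu at day 10 and 3584 and 3898 CPM at 48 h, and whether free Clu RNA sets the non-epithelial values was not tested.

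**Figure D5:**
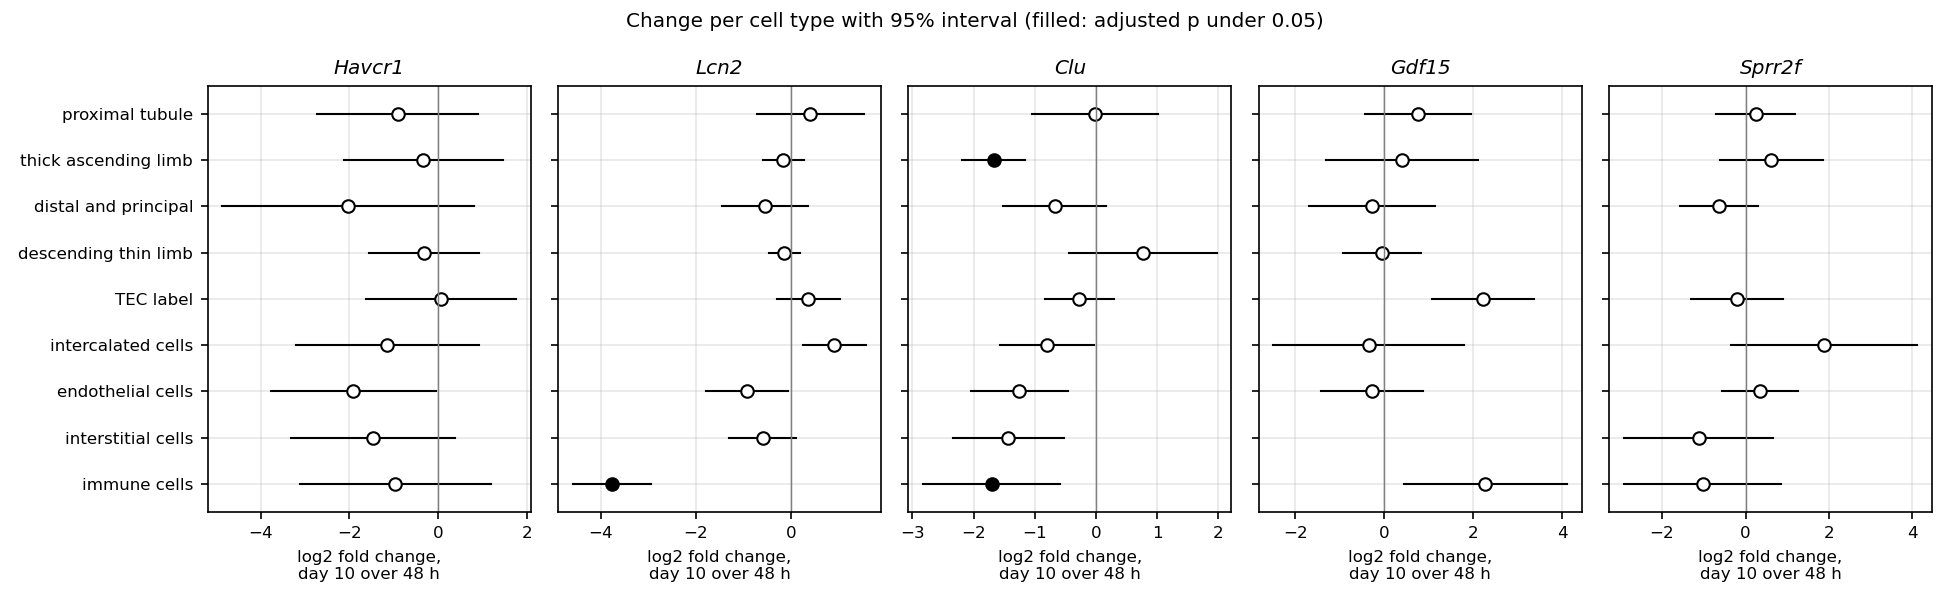
Log2 fold change, day 10 over 48 h, of each gene in 9 cell types (edgeR, horizontal axis) with its 95% interval; filled points passed an adjusted p of 0.05. Filled points are Lcn2 and Clu in immune cells and Clu in thick ascending limb, all lower at day 10, and no point is drawn where a gene was not tested. Immune cells are the background type for Clu.

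Gdf15, the stress-induced cytokine, was highest in the descending thin limb. It held 358, 416 and 236 CPM there in day 10 mice against 489 and 174 CPM in 48 h mice, so the groups overlapped. This was 41.5 to 73.9 times the endothelial level in the same mouse, where endothelial cells held 8.63, 6.83 and 3.20 CPM at day 10 and 9.91 and 4.19 CPM at 48 h. Thinned to 1000 UMIs, 20.9, 23.7 and 15.9% of descending thin limb cells had a Gdf15 UMI at day 10 and 33.3 and 10.4% at 48 h, against 0.564, 0.646 and 0.355% of endothelial cells at day 10 and 1.21 and 0.466% at 48 h. Although few, at 90 to 157 cells per library, these cells held 25.9, 29.1 and 29.8% of a library's Gdf15 UMIs at day 10 and 21.1 and 29.7% at 48 h. Fewer cells of a type and less RNA per cell cannot be told apart in such shares.

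Distal and principal cells held 117, 172 and 73.9 CPM of Gdf15 at day 10 against 205 and 47.5 CPM at 48 h, and proximal tubule 75.8, 75.0 and 28.8 CPM at day 10 against 40.6 and 17.5 CPM at 48 h. The proximal level was 4.10 to 10.99 times the endothelial one. Both CPM ranges overlapped between the times. Of the proximal labels, S1 and injured cells overlapped too. Lrp2-positive S2/3 cells did not, at 26.3 to 72.7 CPM at day 10 against 9.56 and 13.3 CPM at 48 h. Nor did Lrp2-negative S2/3 cells, at 34.1 to 103.9 CPM at day 10 against 8.89 and 30.7 CPM at 48 h. These Lrp2-negative levels rest on few UMIs, as 3 UMIs amount to 6.66 CPM in 48 h mouse 2 and 24.0 CPM in day 10 mouse 4. In proximal tubule as a whole 51.3% of genes did not overlap, and the share within each S2/3 label is not given here. These labels are divided by the Havcr1 count. The fold changes in the tubule were -0.04 in descending thin limb (SE 0.39, edgeR adjusted p = 0.969), -0.27 in distal and principal cells (SE 0.60, edgeR adjusted p = 0.954) and 0.39 in thick ascending limb (SE 0.73, edgeR adjusted p = 0.761), all log2 and none called. In the descending thin limb edgeR called 0 of 4 members tested, 0 with an unadjusted p under 0.05, and DESeq2 called 0 of 5, where 5.12% of genes were called by edgeR, 2.77% higher and 2.35% lower at day 10.

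Gdf15 in the thick ascending limb differed widely between mice of the same time. Its 2 mice at 48 h held 42.8 and 4.89 CPM, and the day 10 mice lay between or above them at 59.7, 44.7 and 19.9 CPM. Without 48 h mouse 1 the log2 fold change was 2.75 with an edgeR adjusted p of 0.0267, whereas with all 5 mice it was 0.39.

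In the TEC label and in macrophage-like cells every day 10 mouse held more Gdf15 than either 48 h mouse, and the test was passed in the macrophage-like cells alone of these. The TEC label held 335, 162 and 107 CPM at day 10 against 58.3 and 16.3 CPM at 48 h, with no overlap, as for 27.1% of genes there, and a log2 fold change of 2.22 (SE 0.53, edgeR adjusted p = 0.111) that missed the threshold. For the TEC label edgeR called 0 of 5 members, 1 with an unadjusted p under 0.05, and DESeq2 called 0, where 0.525% of genes were called. In immune cells Gdf15 was 12.1, 24.7 and 5.82 CPM at day 10 against 4.88 and 1.55 CPM at 48 h, a log2 fold change of 2.27 (SE 0.76, edgeR adjusted p = 0.0837). Within the macrophage-like cluster 0 it was 12.3, 24.9 and 5.51 CPM at day 10 against 3.37 and 1.51 CPM at 48 h, and the log2 fold change was 2.65 (SE 0.76, edgeR adjusted p = 0.0488), a call lost without mouse 1, 2 or 3 and without TMM scaling. In that cluster 24.1% of genes were called and 57.9% did not overlap. Immune Gdf15 was 0.371 to 3.61 times the endothelial level, above it in 3 of 5 mice.

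Sprr2f, the small proline-rich gene, came mostly from principal cells. Principal cells held 1982, 824 and 982 CPM in day 10 mice against 2019 and 1039 CPM in 48 h mice, with overlap. They held 76.0, 88.9 and 75.6% of a library's Sprr2f UMIs at day 10 and 80.0 and 86.7% at 48 h. Thinned to 1000 UMIs, 36.8, 23.9 and 25.5% of principal cells had a Sprr2f UMI at day 10 and 39.2 and 34.3% at 48 h, against 1.69, 0.808 and 1.42% of endothelial cells at day 10 and 0.364 and 0.621% at 48 h. The promoter with a TATAAA and a TGANTCA match printed above belongs to this gene. Its log2 fold change was -0.42 in principal cells (SE 0.43, edgeR adjusted p = 0.762) and -0.63 in all distal and principal cells (SE 0.39, edgeR adjusted p = 0.771), and neither passed.

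Around the principal cells Sprr2f varied between mice. Connecting tubule cells held 394, 12.7 and 318 CPM at day 10 against 1405 and 22.2 CPM at 48 h, and these groups overlapped. The TEC label held 399, 72.6 and 370 CPM at day 10 against 209 and 388 CPM at 48 h, and intercalated cells 214, 46.8 and 23.7 CPM at day 10 against 9.66 and 39.8 CPM at 48 h. Intercalated cells had 0 of 5 members called by edgeR (2 with an unadjusted p under 0.05, DESeq2 0), where 0.238% of all genes were called. Thick ascending limb, descending thin limb and proximal tubule Sprr2f was below the endothelial level in all 5 mice, where endothelium held 4.04 to 7.91 CPM at day 10 and 3.89 and 4.46 CPM at 48 h.

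Near-identical relatives could share reads, so the 2 members with close paralogs were compared with them. Over the last 300 bases of the transcript, where these reads lie, Sprr2f was 73.7% identical to Sprr2i, which had 0 UMIs, and 51.3 to 60.7% identical to the other Sprr2 genes, which had at most 115 UMIs each, against 24001 for Sprr2f. Sprr2g is not in the matrices analysed here. Havcr1 was 66% identical to its relative Timd2 over the same length, and Timd2 had 10643 UMIs against 29933 for Havcr1. Of the 14 Sprr family genes listed, 13 were in the files and Sprr1a alone was abundant enough to test in the 4 main tubule types. Sprr1a in distal and principal cells was 129, 15.7 and 54.7 CPM at day 10 against 230 and 43.1 CPM at 48 h, with a log2 fold change of -1.22 (edgeR adjusted p = 0.812).

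Summed over all kept cells of a library, no member was called by edgeR. Lcn2 was 956.5, 747.6 and 882.6 CPM at day 10 against 1829 and 1105 CPM at 48 h, and Clu was 2460, 1014 and 2522 CPM at day 10 against 4859 and 3721 CPM at 48 h. Neither gene overlapped between the times in this sum, as for 45.4% of all genes. Lcn2 gave a log2 fold change of -0.91 (SE 0.26, edgeR adjusted p = 0.138) and Clu of -1.24 (SE 0.41, edgeR adjusted p = 0.171). Of the 5 members edgeR called 0, with 2 at an unadjusted p under 0.05, and DESeq2 called these 2, where 1.83% of genes were called by edgeR. Gdf15 was 63.6, 63.6 and 34.0 CPM at day 10 against 66.3 and 17.6 CPM at 48 h, and Sprr2f 87.7, 37.1 and 72.3 CPM at day 10 against 112.4 and 64.9 CPM at 48 h.

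Members were partly detected in the same cells. In distal and principal cells thinned to 1000 UMIs, 17.9, 14.9 and 17.3% of cells with an Lcn2 UMI also had a Sprr2f UMI at day 10 and 17.4 and 25.4% at 48 h, compared with 6.79, 0.746 and 1.75% of cells without one at day 10 and 7.46 and 1.82% at 48 h. This type merges 4 labels that differ in both genes: principal cells held most Sprr2f, and no DCT cell had more than 1 Lcn2 UMI. These shares therefore do not show joint detection within a label. In the thick ascending limb 83.7, 71.1 and 72.4% of cells with an Lcn2 UMI had a Clu UMI at day 10 and 94.0 and 90.9% at 48 h, compared with 64.2, 45.7 and 52.8% of cells without one at day 10 and 86.9 and 78.3% at 48 h. In proximal tubule Lcn2 was not detectable above background. The share of proximal cells with an Lcn2 UMI was lower among cells with a Havcr1 UMI in 4 of 5 mice. Cells with a Havcr1 UMI numbered 170, 25 and 123 at day 10 and 374 and 41 at 48 h. At a background level these shares do not show that the 2 genes exclude each other. Of cells with a Havcr1 UMI 4.12, 8 and 8.13% had an Lcn2 UMI at day 10 and 8.29 and 2.44% at 48 h, compared with 7.06, 8.74 and 5.77% of cells without one at day 10 and 14.5 and 8.38% at 48 h. These are descriptions over cells of the same library.

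Over 84 sums of one label in one mouse, the levels (log2 of CPM + 1) of Lcn2 and Clu had a Pearson r of 0.73, Clu and Sprr2f 0.54, Lcn2 and Sprr2f 0.51, and Havcr1 and Gdf15 0.32. Havcr1 and Lcn2 had an r of -0.00 and Havcr1 and Clu of -0.19. Among 8116 genes that reached 50 CPM in a sum, the 3 most like Havcr1 were Serpina10 (r = 0.80), the keratin Krt20 (0.72) and the complement gene C3 (0.71). Closest to Lcn2 were Macc1 (0.81), Cd24a (0.77) and Ehf (0.77), and closest to Clu were Mal2 (0.92), Wfdc2 (0.91) and Mal (0.91). Closest to Gdf15 were Tspan33 (0.73), Cblc (0.71) and Spns2 (0.70), and closest to Sprr2f were Rprm (0.87), Fxyd4 (0.83) and Elf5 (0.83). The sums of one mouse share a library and its depth, so these values describe likeness across labels and carry no test.

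A list of 25 other genes of tubule injury (keratins, adhesion and repair genes) had 8 called higher and 2 called lower of 23 tested in the thick ascending limb, where edgeR called 4.98% of genes higher and 5.38% lower. Krt19 rose by 4.19 on the log2 scale, Vcam1, an adhesion molecule of stalled repair, by 3.27 and the calcium-binding S100a6 by 3.21, while Spp1, the osteopontin gene, fell by 1.39 and Cd24a by 0.93. Spp1 was 44859, 34034 and 35706 CPM in the thick ascending limb at day 10 against 83744 and 72776 CPM at 48 h. Krt20 (2.94) and Krt18 (1.92) also rose there, and Krt8 (0.40), Sox9 (0.28) and Cdkn1a (1.02) did not pass. The median log2 fold change of the list was 0.72, against 0.00 for all genes. Without day 10 mouse 5, 1 of these genes was called higher and 0 lower, and without day 10 mouse 4, 6 higher and 0 lower. The macrophage marker sums given above for the thick ascending limb moved with these genes, and their part was not tested. The mitochondrial shares given above for these cells also differed between the times.

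In the descending thin limb 8 of 23 listed genes were called higher and 0 lower, where 2.77% of genes were called higher. Without 48 h mouse 2, 5 were called higher. Krt19 (2.61), Vcam1 (2.58) and the progenitor factor Sox9 (2.46) led, and Krt8 (1.17), Krt18 (1.15) and the cell cycle inhibitor Cdkn1a (1.80) were also called, on the log2 scale. Krt20 (3.00) and Spp1 (0.19) did not pass there. Vcam1 was 397, 231 and 242 CPM in the descending thin limb at day 10 against 47.2 and 46.4 CPM at 48 h, with no overlap, as for 38.1% of genes in this type. The list's median log2 fold change was 0.66, against 0.00 for all genes.

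In proximal tubule 2 of 24 listed genes were called higher, the adhesion receptor Cd44 (3.12) and the keratin Krt7 (1.34), and 0 lower, where 1.28% of genes were called higher. Cd44 was 29.8, 30.0 and 31.2 CPM in proximal tubule at day 10 against 2.62 and 3.25 CPM at 48 h, with no overlap, as for 51.3% of genes in this type. DESeq2 called 6, and edgeR called 8 without 48 h mouse 1 and 1 without any other single mouse. Vcam1 (3.04, adjusted p = 0.0860), Krt18 (1.56, adjusted p = 0.0661), Krt8 (0.57), Krt20 (0.71), Sox9 (0.74), Cdkn1a (0.79) and Spp1 (-1.30) did not pass in edgeR. The list's median log2 fold change was 0.72, against 0.03 for all genes. In distal and principal cells 0 of 23 were called by edgeR and 0 by DESeq2, 5 with an unadjusted p under 0.05 in edgeR, and the median was -0.17, against -0.01 for all genes.

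Of 15 stress and p53 genes, which include known inducers of Gdf15, 14 were in the files. In the thick ascending limb 4 of 13 tested were called higher, led by the p53 target Phlda3 (2.79), the factor Klf4 (1.55) and the apoptosis gene Bbc3 (0.93), and 0 lower, where 4.98% of all genes were called higher, with a list median of -0.19 against 0.00 for all genes. In the descending thin limb Phlda3 (2.51), Bbc3 (1.96), Cdkn1a (1.80) and Ccng1 (1.06) were called higher and the immediate-early gene Egr1 (-0.77) lower, where 2.77% of all genes were called higher and 2.35% lower, with a list median of 0.59 against 0.00 for all genes. In proximal tubule edgeR called 0 of 13, 3 with an unadjusted p under 0.05 and DESeq2 1, where edgeR called 3.22% of all genes, with a list median of 0.57 against 0.03 for all genes. In distal and principal cells edgeR called 0 of 12, 2 with an unadjusted p under 0.05 and DESeq2 1, where edgeR called 0.00774% of all genes, with a list median of -0.06 against -0.01 for all genes. Atf3, a stress-induced factor, did not pass in any of the 4 types, with log2 fold changes from -1.62 to 0.47. Of 14 paralogs, receptors and partners of the members, Trem2 was called higher in proximal tubule (4.18) and thick ascending limb (3.25), and Lrp8, a clusterin receptor, lower in thick ascending limb (-1.28), with 8 genes tested in each type, where 1.28% of all genes were called higher in proximal tubule and 4.98% higher and 5.38% lower in thick ascending limb. The median of these partners was -0.33 in proximal tubule and -0.39 in thick ascending limb. Trem2, a phagocyte receptor, averaged 7.70 CPM at day 10 against 0.375 CPM at 48 h in proximal tubule, and 5.83 CPM at day 10 against 0.503 CPM at 48 h in thick ascending limb. The 4 macrophage markers in proximal tubule summed to 74.3, 141 and 134 CPM at day 10 against 15.4 and 12.5 CPM at 48 h, none of them at 0, and their part in the Trem2 and Cd44 values was not tested. In descending thin limb 0 of 6 and in distal and principal cells 0 of 8 partners were called by edgeR, 1 and 0 with an unadjusted p under 0.05, and DESeq2 called 0 in both, where edgeR called 5.12% and 0.00774% of all genes and the medians were -0.21 and -0.20.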

How the data were processed

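Droplet libraries of the 3′ ends of RNA (10x Genomics v3.1 chemistry, per the labels) were made from mouse kidney. Reads were processed by the authors with Cell Ranger 6.0.2 on mm10 and Seurat 4.0.5, per the submitters' processing notes, while the matrix headers name Cell Ranger 6.0.0. The authors deposited UMI counts per gene and barcode, and a cell table with 23797 cells and 18 labels, whose filters are not given in the sources used here. Its percent mitochondrial UMIs per cell were computed by the authors and deposited. Doublet removal was not stated, and no caller was run here.

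Raw UMI counts were summed per mouse and cell type. CPM and shares were computed from them here. Types with 20 or more cells in each library were tested with edgeR 4.0.16 (filterByExpr, TMM, quasi-likelihood, group only, all 5 mice) in R 4.3.3, with Benjamini-Hochberg adjustment over all genes tested. DESeq2 1.42.0 and other settings were alternatives. Each script was tested on simulated counts. The smallest kept cell had 1000 UMIs, to which cells were thinned, so none was dropped. Intervals cover counting error or the spread between mice only.

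The 5 members, the gene lists and the markers were chosen with earlier results of these data known. Named genes are the members, up to 3 rises and 3 falls per list and type, Krt20, Spp1, Vcam1, Sox9, Krt8, Krt18, Cdkn1a, Atf3, the most abundant other Sprr gene and the 3 genes most like each member. Genes named beyond these were chosen after their values were seen.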

Additional observations from a re-analysis of the deposited data

Results flagged for a closer look

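The time effect of Clu differed between 2 cell types of the same mice. The change in proximal tubule exceeded that in thick ascending limb by 1.76 on the log2 scale in edgeR's interaction test (adjusted p = 0.0151). Clu fell in the thick ascending limb, and its proximal level was within the range of immune cells.

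All 5 genes were also present in barcodes outside the deposited cell table, which the comparisons did not use. These numbered 2757, 1525 and 2744 at day 10 and 3688 and 2656 at 48 h, and there is no control sample to set them against. The median over the 5 mice was 127.1 CPM for Havcr1, 1262 CPM for Lcn2, 2764 CPM for Clu, 65.96 CPM for Gdf15 and 76.21 CPM for Sprr2f. Havcr1 was 146, 53.9 and 127 CPM in them at day 10 against 354 and 58.3 CPM at 48 h. Lcn2 was 1262, 1653 and 1449 CPM at day 10 against 1251 and 938 CPM at 48 h.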

How the results depend on the processing

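No paired analysis was possible because the mouse numbers are not shared between the times. The fall of Clu in the thick ascending limb ran from -1.86 to -1.51 (log2) with 1 mouse left out, and was not called without day 10 mouse 5 (-1.63, adjusted p = 0.0758). Gdf15 in the thick ascending limb ran from -0.41 to 2.75 and was called without 48 h mouse 1 (adjusted p = 0.0267). With DESeq2, Lcn2 (-0.92) and Clu (-1.26) in all cells were called lower at day 10. The Clu time effect in proximal tubule minus that in thick ascending limb was 1.68 without mouse terms (adjusted p = 0.155) and 1.27 to 2.26 with 1 mouse left out, not called without day 10 mouse 3 or 5. The same difference for Gdf15 ran from -1.19 to 0.72 and turned negative and called without 48 h mouse 1 (adjusted p = 0.0282). That for Clu between proximal tubule and distal and principal cells ran from 0.28 to 1.36 and was called without 48 h mouse 1 (adjusted p = 0.0192). The cause of these changes was not tested.

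Without TMM factors the median of all genes rose to 0.36 in thick ascending limb and 0.29 in proximal tubule, and called genes became 92.7% higher at day 10 (3484) against 48.1% (1325) with TMM in the first, and 72.3% (566) against 39.8% (447) in the second. Clu in thick ascending limb was then -1.30. DESeq2 called 1197 genes in proximal tubule and 108 in distal and principal cells, where edgeR called 447 and 1. Without a filter on low counts edgeR called 1143 in proximal tubule, 2429 in thick ascending limb, 92 in distal and principal cells and 1306 in descending thin limb. With equal numbers of cells at 1000 UMIs it called 74, 129, 8 and 40 in the same 4 types, where the full sums gave 447, 1325, 1 and 573. With 1 mouse left out the counts ran from 27 to 594, 86 to 1379, 0 to 12 and 163 to 592, lowest without day 10 mouse 5 in the first 3 types and without 48 h mouse 2 in the last. With cells under 20% mitochondrial UMIs alone, 810 were called in thick ascending limb. In immune cells 2774 were called, and 128 (without 48 h mouse 2) to 3719 with 1 mouse left out. The edgeR call of Clu in immune cluster 5 was lost with DESeq2 (adjusted p = 0.121), without 48 h mouse 1 and without day 10 mouse 5. In that cluster edgeR called 18.5% of genes. Clu there overlapped between the times, at 145 to 306 CPM at day 10 against 235 and 1128 CPM at 48 h. Depth differed by type: the median proximal cell held 12625.5 to 16589.5 UMIs at day 10 and 5996 and 6197 at 48 h, and the median distal and principal cell 17863 to 18486 at day 10 and 19979 and 20981 at 48 h, and its part in the calls was not tested beyond the sums at 1000 UMIs.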
